A study of Mus musculus with 36 samples.

Results

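The mature products of mmu-mir-224 and mmu-mir-452, miRNA hairpins that lie in the same intron of Gabre, were examined in mouse kidneys that develop cysts, a model of autosomal dominant polycystic kidney disease (ADPKD). The members were chosen by name, as both arms of both hairpins (mmu-miR-224-5p, mmu-miR-224-3p, mmu-miR-452-5p and mmu-miR-452-3p, written without the prefix from here on), and make up 4 of the 1915 mature miRNAs in the count table. Each member has a single row among the table's 2061 rows. Small RNA was sequenced from whole kidney of C57BL/6 mice aged 1, 3 or 7 days after birth (P1, P3, P7), and the 36 libraries fall into 12 groups of n = 3. The Pkd1 model compared Pkd1f/f:HoxB7-Cre mice (called KO here) with Pkd1f/f mice (called WT), and the Pkd2 model compared Pkd2f/f:HoxB7-Cre mice (KO) with Pkd2f/f mice (WT). Every animal, the controls included, thus carried the floxed allele of its model, and the KO differed by Cre recombinase. The HoxB7 promoter drives Cre in the ureteric bud and the collecting duct that forms from it. The RNA came from the whole organ, most of whose cells are not targeted, so fewer cells of a type and less RNA per cell cannot be told apart. The labels give no sex, and both hairpins are on the X chromosome. They also do not say whether 1 library is 1 animal, so p-values measure the spread between these libraries.

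Gabre encodes the epsilon subunit of the GABA-A receptor, a chloride channel opened by the neurotransmitter GABA. miRNAs inside introns are often cut from the host transcript, which was not checked here for these 2 hairpins. Each hairpin can yield a 5p and a 3p arm, of which one or both can be loaded into Argonaute. The loaded strand finds target messenger RNAs mainly through its seed, bases 2 to 8. miR-224 is induced by TGF-beta in mouse granulosa cells and is raised in human clear cell renal cell carcinoma, and miR-452 is often raised together with it in tumors.

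In the GRCm38 build Gabre occupies 72255999 to 72274803 on the minus strand of chromosome X. The Mir224 hairpin lies at 72261031 to 72261112 and the Mir452 hairpin at 72262224 to 72262308, on the same strand, with 1111 bases between them. Both fall in intron 6 (72258567 to 72262444) of the 9-exon transcript Gabre-201, and 0 exons of any annotated Gabre transcript overlap them. The mature sequences, from RefSeq on GRCm38.p6, are shown with the seed in capitals because the seed decides which messenger RNAs each arm can pair with.
miR-224-5p: uAAGUCACuagugguuccguu
miR-224-3p: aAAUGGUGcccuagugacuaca
miR-452-5p: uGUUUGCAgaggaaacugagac
miR-452-3p: uCAGUCUCaucugcaaagaggu

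The 4 seeds differ from one another. Among the 1679 mouse mature names of the RefSeq sequence table, no miRNA outside the members carries any of these seeds, so none belongs to a larger seed family there. The table held 1623 of the 1915 names in the count table. The hairpins are shown with both arms in capitals, since the share of reads on each arm is one of the measurements below.
Mir224: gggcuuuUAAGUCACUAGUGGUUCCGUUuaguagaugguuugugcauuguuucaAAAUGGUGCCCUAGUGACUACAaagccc
Mir452: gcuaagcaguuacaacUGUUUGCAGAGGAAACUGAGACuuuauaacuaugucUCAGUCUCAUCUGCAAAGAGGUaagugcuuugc

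Libraries held 12569939 to 32663566 reads, with a median of 24008082. A floor of 3 reads was used, and this corresponded to 0.0918 to 0.239 reads per 1000000 library reads (RPM). The pair miR-10a-5p and miR-10b-5p took 31.4% to 81.0% of the reads of a library. The trimmed mean of M values (TMM) factors, which rescale library totals so that most miRNAs stay level between libraries, ran from 0.395 to 2.41. Counts per 1000000 after TMM scaling are called CPM here, and RPM values carry no such scaling. Both are given where they differ.

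miR-224-5p was the only member detected in every library. It had 131 to 918 reads per library, 14955 in all, and ranked 277 of 1915 by its mean of 17.9 RPM. The library with the fewest reads, Pkd1 WT replicate 2 at P7, gave 8.01 RPM with a Wilson 95% interval of 6.75 to 9.51, and this interval covers counting error only. The other arms were close to the floor. miR-224-3p had at most 11 reads in a library and reached 3 reads in 24 of 36 libraries. miR-452-5p had 200 reads and reached the floor in 29 libraries, and miR-452-3p had 204 reads and reached it in 25. At a level of 10 reads the numbers of libraries were 36, 2, 6 and 7 for miR-224-5p, miR-224-3p, miR-452-5p and miR-452-3p. Their ranks were 765, 715 and 718 for the 3 scarce arms.

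At P7 the mean level of miR-224-5p in KO kidneys was about 2 times that of WT kidneys in both models. In the Pkd1 model the KO libraries had 38.5, 51.9 and 27.7 CPM and the WT libraries had 24.4, 20.3 and 16.8 CPM (39.4 ± 12.1 against 20.5 ± 3.81, SD, n = 3). Every Pkd1 KO library was above every WT library at P7, as were 6.23% of miRNAs tested. In the Pkd2 model the KO libraries had 12.6, 32.0 and 32.4 CPM and the WT libraries had 15.3, 11.3 and 9.95 CPM (25.7 ± 11.3 against 12.2 ± 2.80, SD, n = 3). Here KO replicate 1 lay inside the WT range, and the other two KO libraries were above it.

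Averaged over both models by edgeR's quasi-likelihood test, miR-224-5p at P7 differed between KO and WT by 1.01 on the log2 scale (SE 0.26, Benjamini-Hochberg adjusted p = 0.0128 over 775 miRNAs). In that test 8.0% of miRNAs had an adjusted p under 0.05, and 3.48% were called higher in KO. Within a single model the effect did not pass. For Pkd1 it was 0.98 (SE 0.32, edgeR adjusted p = 0.198), where 0.425% of miRNAs were called. For Pkd2 it was 1.13 (SE 0.36, edgeR adjusted p = 0.0503), where 12.6% were called. The effects of the models differed by -0.13 on the log2 scale (Pkd1 minus Pkd2, SE 0.51, edgeR adjusted p = 0.956), a test that called 0.387% of miRNAs. The call for the mean of both models rested on Pkd2 KO replicate 3: without it the log2 fold change was 0.91 with an edgeR adjusted p of 0.0538. Over all 12 fits that each left out a P7 library, this adjusted p ran from 0.00236 to 0.0538.

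**Figure D1:**
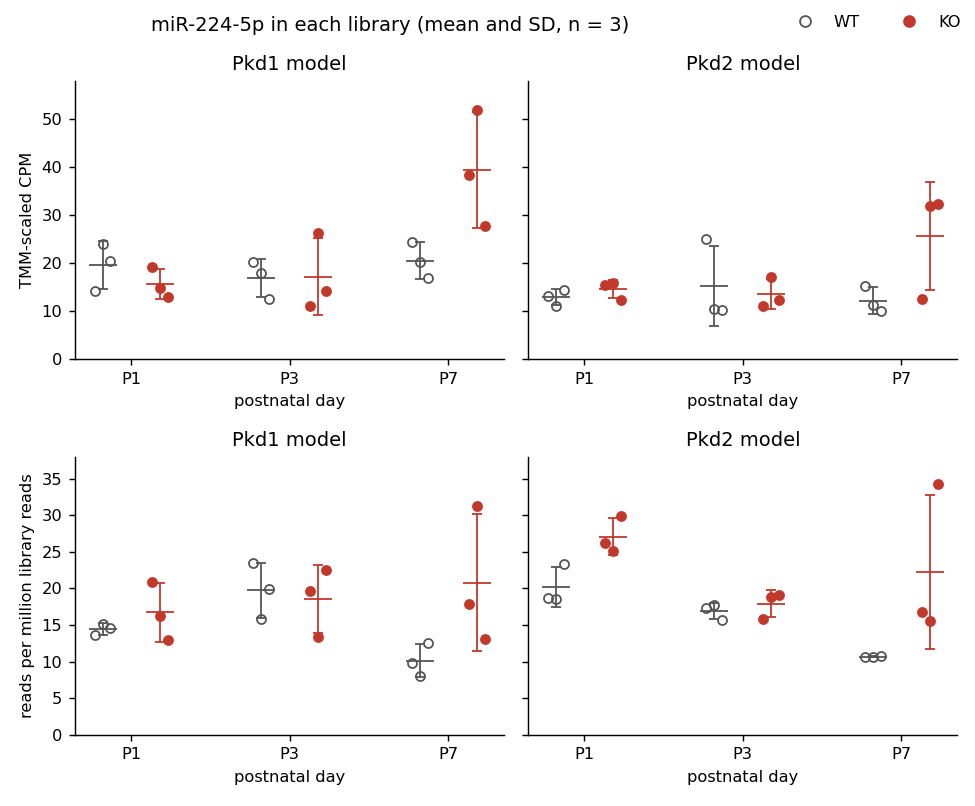
miR-224-5p in each library at postnatal days 1, 3 and 7 in the Pkd1 model (left) and the Pkd2 model (right), as TMM-scaled CPM (top) and RPM (bottom). Open grey points are WT, filled red points are KO, and bars give the mean and SD of n = 3 libraries. At P7 the KO means were 39.4 and 25.7 CPM and the WT means 20.5 and 12.2 CPM, and in RPM every KO library was above every WT library in both models.

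Without TMM scaling the P7 libraries separated in both models. In RPM the Pkd2 WT libraries had 10.6, 10.6 and 10.8 and the KO libraries 16.7, 15.6 and 34.3. The Pkd1 WT libraries had 9.88, 8.01 and 12.5 RPM and the KO libraries 17.9, 31.3 and 13.2. KO was thus above WT in 3 of 3 libraries of each model on this scale, as were 4.25% of miRNAs tested for Pkd1 and 6.97% of those for Pkd2. The ratio of KO to WT means was 2.05 for Pkd1 and 2.08 for Pkd2. The lone Pkd2 KO library inside the WT range in CPM had the highest TMM factor of the P7 libraries (1.33) and the lowest miR-10 share (41.1%). The part of composition in these values was not tested beyond the following fit.

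The level of miR-224-5p moved with the miR-10 share of a library. Across the 36 libraries Spearman's rho with that share was 0.828 in CPM and -0.460 in RPM, and both measures are computed from the same library total. A fit that held this share as an extra term was therefore added after the values had been seen. In it the KO effect at P7 was 1.00 for Pkd1 (edgeR adjusted p = 0.0417) and 0.90 for Pkd2 (edgeR adjusted p = 0.00548). For the mean of both models it was 0.92 (edgeR adjusted p = 0.000455). The calls over all miRNAs rose as well in this fit. They were 20 for Pkd1, 168 for Pkd2 and 122 for the mean, against 3, 94 and 62 without the term. The Pkd1 effect passed in this fit alone. Over the 9 other settings tried, the log2 fold change stayed between 0.95 and 1.04 for Pkd1, between 0.90 and 1.16 for Pkd2 and between 0.92 and 1.05 for the mean of both. Their edgeR or DESeq2 adjusted p ran from 0.0417 to 0.995, from 0.00548 to 0.0940 and from 0.000455 to 0.0231, respectively.

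At P1 and P3 the genotypes overlapped in CPM. At P1 the Pkd1 WT libraries had 14.1, 24.0 and 20.5 CPM and the KO libraries 19.2, 14.8 and 13.0 CPM. The Pkd2 WT libraries had 13.2, 11.1 and 14.3 CPM at that age and the KO libraries 15.5, 15.9 and 12.4 CPM. The log2 fold changes at P1 were -0.26 for Pkd1 (SE 0.32, edgeR adjusted p = 0.735) and 0.23 for Pkd2 (SE 0.36, edgeR adjusted p = 0.982). The Pkd1 value turned to 0.21 when only library totals were used for scaling. The tests at P1 called 0.0% of miRNAs in either model.

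At P3 the Pkd1 WT libraries had 20.3, 17.9 and 12.5 CPM and the KO libraries 11.1, 26.3 and 14.2 CPM. The Pkd2 WT libraries had 25.0, 10.5 and 10.2 CPM and the KO libraries 11.1, 17.1 and 12.3 CPM. No difference between the genotypes was detected at this age. The log2 fold changes were 0.02 (SE 0.32, edgeR adjusted p = 0.999) and -0.20 (SE 0.36, edgeR adjusted p = 1.0), with a sign that depended on the scaling, and 0.0% of miRNAs were called in either model. Pkd2 at P1 was the exception in RPM, where the KO libraries (27.1 ± 2.51, SD, n = 3) were all above the WT libraries (20.2 ± 2.72, SD, n = 3), as were 12.5% of miRNAs tested.

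The KO effect at P7 exceeded that at P1 by 1.24 on the log2 scale in the Pkd1 model (SE 0.45, edgeR adjusted p = 0.366). The Pkd2 excess was 0.91 (SE 0.51, edgeR adjusted p = 0.378). Neither passed, and the 2 tests called 0.142% and 0.536% of miRNAs.

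Between P1 and P7 miR-224-5p rose in Pkd1 KO kidneys, by 1.41 on the log2 scale (SE 0.32, edgeR adjusted p = 0.00987), where 17.1% of miRNAs were called. In Pkd2 KO kidneys the change was 0.76 (SE 0.36, edgeR adjusted p = 0.133), where 24.4% were called. In WT kidneys it was 0.17 for Pkd1 (edgeR adjusted p = 0.748) and -0.15 for Pkd2 (edgeR adjusted p = 0.801), where 21.5% and 28.3% of miRNAs were called. The age comparisons moved with the choice of scaling. When library totals were the only scaling, the change in Pkd1 KO kidneys was 0.31 (edgeR adjusted p = 0.483), while the median of all miRNAs tested moved to -1.16. Over the 9 other settings this adjusted p ran from 0.000896 to 0.483. Under library totals WT kidneys of the Pkd2 model fell by 0.92 (edgeR adjusted p = 0.0257), with a median of all miRNAs of -0.78. Over the 9 other settings that adjusted p ran from 0.0257 to 0.900.

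**Figure D2:**
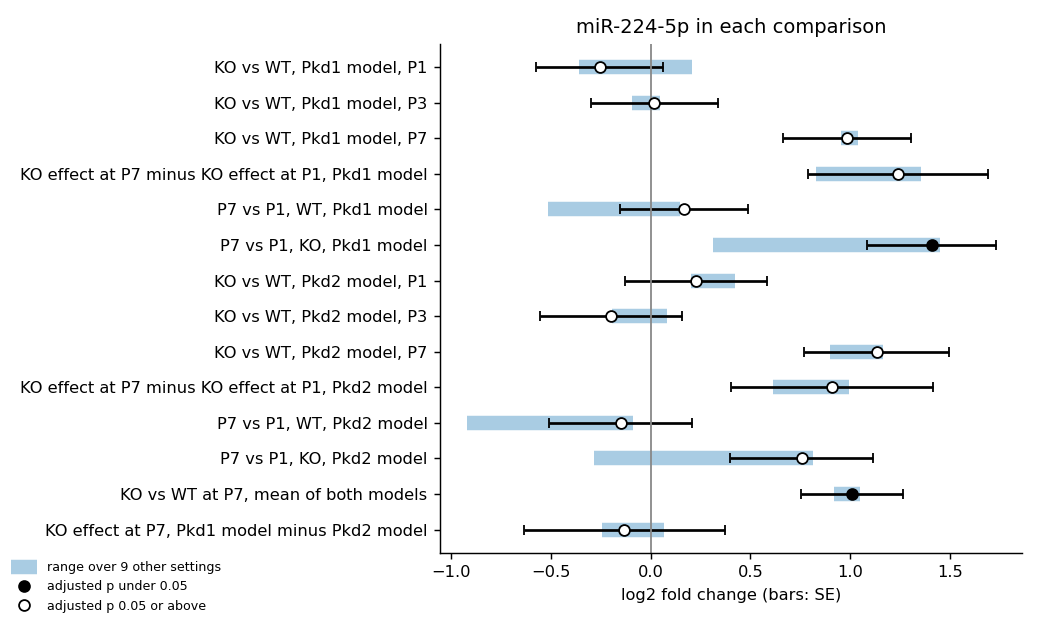
Log2 fold change of miR-224-5p in each of 14 comparisons, with bars for the SE, filled points for an adjusted p under 0.05 and a blue band for the range over 9 other settings. The KO effect at P7 averaged over both models (1.01) and the rise from P1 to P7 in Pkd1 KO kidneys (1.41) were called, and the band of the latter reaches down to 0.31.

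Ordered by mean CPM, the highest of the 12 groups were Pkd1 KO at P7 (39.4), Pkd2 KO at P7 (25.7) and Pkd1 WT at P7 (20.5). The 9 remaining groups lay between 12.2 CPM in Pkd2 WT at P7 and 19.5 CPM in Pkd1 WT at P1. In every neighbouring pair of this order the ranges of the libraries overlapped. Of the 14 comparisons, 2 called miR-224-5p.

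The opposite arm, miR-224-3p, had few reads, and at P7 these were higher in every KO library of both models. Pkd1 KO libraries held 2, 4 and 4 reads and the WT libraries 1, 0 and 1 reads at P7, so all 3 WT libraries and KO replicate 1 were under the floor. Pkd2 KO libraries held 11, 5 and 9 reads and the WT libraries 4, 3 and 3 reads. KO was above WT in CPM as well, as were 6.23% (Pkd1) and 13.5% (Pkd2) of miRNAs tested at P7. miR-224-3p did not pass the filter of at least 10 reads in at least 3 libraries in any fit. Without that filter its mean effect of both models at P7 did not pass (edgeR adjusted p = 0.166), and no fold is given for counts this near the floor.

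miR-452-5p showed no common pattern in the 2 models. At P1 the Pkd1 KO libraries held 1, 5 and 2 reads and the WT libraries 8, 4 and 8 reads. In CPM every KO library was below every WT library there, a separation seen in either direction in 18.1% of miRNAs tested. At P7 the Pkd1 KO libraries held 1, 4 and 5 reads and the WT libraries 0, 0 and 2 reads, so the WT libraries and KO replicate 1 were under the floor and no fold is given. The Pkd2 KO libraries at P7 held 11, 5 and 4 reads and the WT libraries 10, 1 and 5 reads. The Pkd2 log2 fold change at P7 was 0.10 (SE 0.63, edgeR adjusted p = 0.949).

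The 18 libraries of the Pkd2 model held 130 reads of miR-452-3p and those of the Pkd1 model 74, beside 118 and 82 of miR-452-5p and 103 and 41 of miR-224-3p. These totals are not scaled for library depth, and their difference was not tested. At P1 the Pkd2 KO libraries held 10, 6 and 15 reads and the WT libraries 6, 3 and 4 reads. The log2 fold change was 1.31 (SE 0.42, edgeR adjusted p = 0.819), with every KO library above every WT library in CPM, as in 4.29% of miRNAs tested. At P7 the Pkd2 KO libraries held 13, 3 and 7 reads and the WT libraries 2, 2 and 5 reads, and the log2 fold change was 1.16 (SE 0.47, edgeR adjusted p = 0.109). KO was above WT in every library in CPM, as in 13.5% of miRNAs tested, but the groups overlapped in reads and in RPM. The Pkd1 KO libraries at P7 held 1, 11 and 2 reads and the WT libraries 1, 0 and 6 reads, which overlapped.

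Only miR-224-5p passed the filter in the Pkd1 model, and both arms of miR-452 passed beside it in the Pkd2 model and in the fit of 36 libraries. For the scarce arms 16 tests were made by edgeR, of which 0 passed, 3 had an unadjusted p under 0.05, and the lowest adjusted p was 0.109. All 3 were of miR-452-3p, in Pkd2 at P1, Pkd2 at P7 and the mean of both models at P7. The comparisons share libraries, so these are not separate results, and their number was not set against that of all miRNAs. Without the filter 42 tests were made, of which 0 passed, and the lowest adjusted p was 0.0549. No change of the scarce arms was thus detected at this depth. Floors of 3 reads set the limit for libraries at 0, which were 3 for miR-224-3p, 2 for miR-452-5p and 3 for miR-452-3p.

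**Figure D3:**
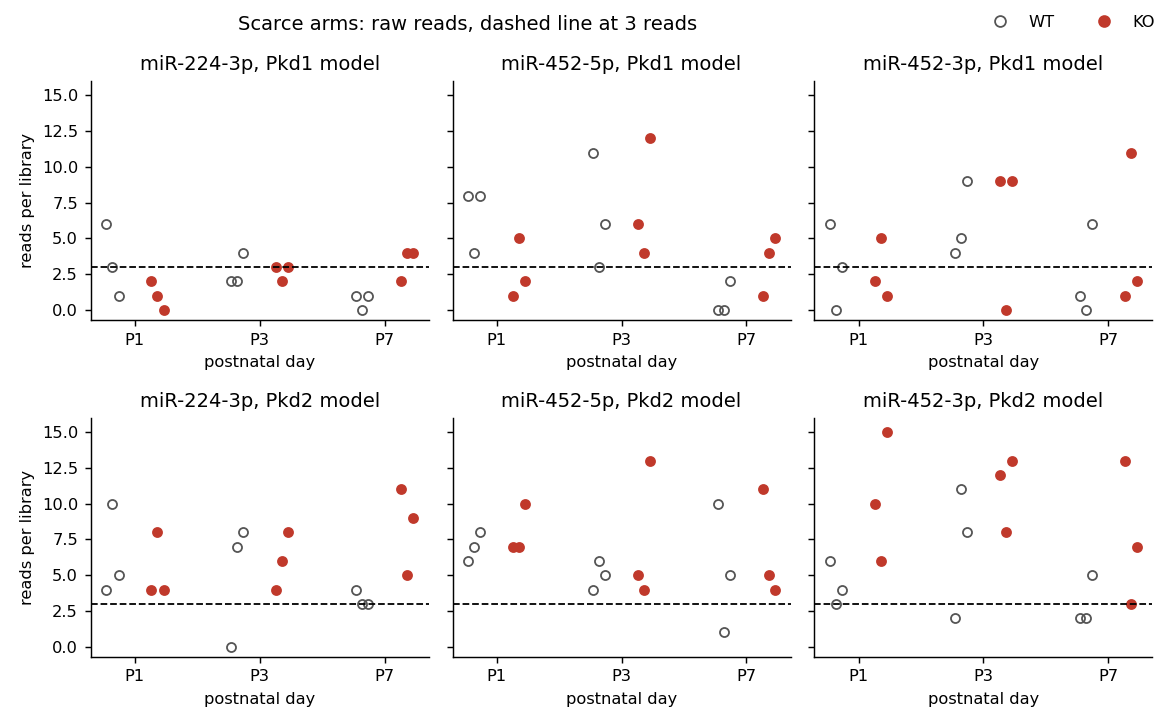
Raw reads per library of miR-224-3p, miR-452-5p and miR-452-3p by postnatal day in the Pkd1 model (top) and the Pkd2 model (bottom), with open grey points for WT, filled red points for KO and a dashed line at the floor of 3 reads. Counts ran from 0 to 15, and the miR-224-3p points of KO at P7 lie above those of WT in both models.

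The 2 hairpins differed in the share of reads on each arm. Over all libraries 99.0% of miR-224 reads came from the 5p arm (14955 reads of 5p, Wilson 95% interval 98.9 to 99.2%), with 97.6 to 100% per library. For miR-452 the arms were even when reads were summed, at 49.5% from the 5p arm (200 and 204 reads, interval 44.7 to 54.4%). In the 35 libraries with a read of miR-452 the share ran from 0 to 100%, on few reads each, a spread that the interval does not cover. Among 424 hairpins with both arms listed and at least 100 reads, the more abundant arm held a median of 94.9% of reads. mir-224 was exceeded by 111 of them (26.2%), and mir-452 had the most even arms of all 424. The interval of the 5p share included 50% in 14 hairpins (3.30%), mir-452 among them. For the 83 hairpins with 200 to 800 reads, a depth that includes mir-452, the median of the more abundant arm was 94.8%.

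**Figure D4:**
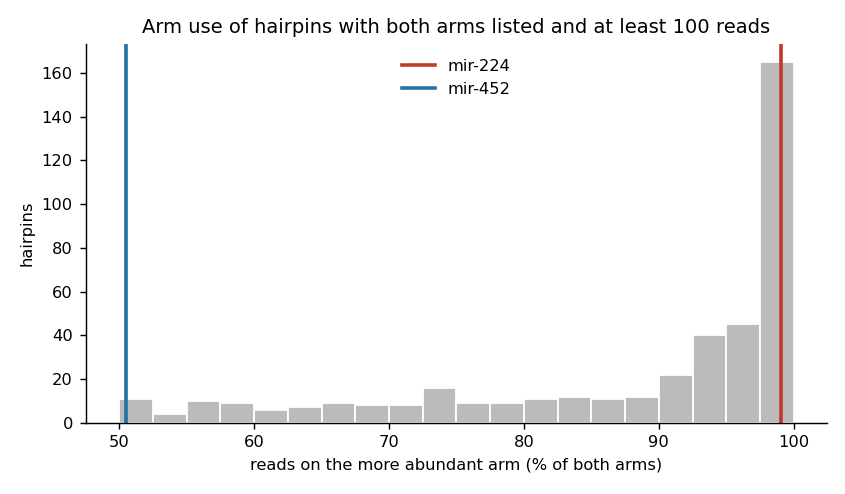
Number of hairpins by the percentage of reads on the more abundant arm, for 424 hairpins with both arms listed and at least 100 reads over the 36 libraries. The red line marks mir-224 (99.0%) and the blue line mir-452 (50.5%).

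No arm share passed its test between the genotypes. The 5p share of miR-224 was 99.1 ± 0.484% in KO and 99.7 ± 0.284% in WT libraries at P7 in the Pkd1 model (exact two-sided permutation p = 0.2). It was 98.5 ± 0.794% and 98.7 ± 0.290% in the Pkd2 model (exact two-sided permutation p = 0.8). Over both hairpins, both models and all ages the exact p ran from 0.2 to 1.0, where 0.1 is the smallest that 3 libraries against 3 allow. For miR-452 in Pkd1 at P7 a WT library without any read of either arm left 2 values. The 5p shares there were 50, 26.7 and 71.4% in KO and 0 and 25.0% in WT libraries. In KO the 5p arm had 1, 4 and 5 reads and the 3p arm 1, 11 and 2. In these WT libraries the 5p arm had 0 and 2 reads and the 3p arm 1 and 6. The shares did not overlap, but on so few reads this is not read as a difference. How often other hairpins separate was not counted. With 3 against 2 values, p = 0.2 is the smallest that the exact test allows.

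Although both hairpins lie in 1 intron, miR-452 had far fewer reads. Whether different sequences are captured alike in these libraries was not tested, so ratios of reads need not be ratios of molecules. Over all libraries there were 2.70 reads of both miR-452 arms for every 100 reads of miR-224-5p, and 1.34 reads of miR-452-5p. This last ratio was 0.822 ± 0.703 in KO and 2.44 ± 0.609 in WT libraries of the Pkd1 model at P1 (exact two-sided permutation p = 0.1, the smallest possible, adjusted p = 0.6 over 6 comparisons). In the other 5 comparisons of this ratio the exact permutation p ran from 0.2 to 0.8. With both miR-452 arms the ratio was 3.22 ± 0.758 in KO and 2.16 ± 0.290 in WT libraries of the Pkd2 model at P1 (exact two-sided permutation p = 0.1, adjusted p = 0.6 over 6 comparisons), and in the other 5 comparisons the exact p ran from 0.2 to 1.0. Between libraries the members did not keep a common order. Spearman's rho of miR-224-5p over the 36 libraries was 0.256 with miR-224-3p, 0.246 with miR-452-5p and -0.094 with miR-452-3p, where the sparse counts of the scarce arms limit any value.

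The miRNAs whose CPM followed miR-224-5p most closely over the 36 libraries, of 323 with a mean of at least 10 CPM, were miR-96-5p (Spearman's rho 0.848), miR-182-5p (0.834), miR-19b-3p (0.794), miR-10b-5p (0.794) and miR-10a-5p (0.777). miR-96 and miR-182 are products of the miR-183 cluster, and miR-19b belongs to the miR-17/92 clusters. After centring each group on its mean the rho values were 0.834, 0.826, 0.775, 0.735 and 0.718. All these values share the library's TMM factor. In RPM the rho of miR-224-5p was 0.568 with miR-96-5p, 0.535 with miR-182-5p, 0.0172 with miR-19b-3p, -0.439 with miR-10b-5p and -0.399 with miR-10a-5p. The order on that scale was led by miR-183-5p (0.803), miR-31-5p (0.774) and miR-200c-3p (0.731). At P7 miR-182-5p had a KO effect of 1.16 for the mean of both models (SE 0.21, edgeR adjusted p = 0.000581), next to 1.01 for miR-224-5p. The corresponding values were 1.54 for miR-96-5p (edgeR adjusted p = 0.0640), 0.41 for miR-19b-3p, 0.25 for miR-10b-5p and -0.03 for miR-10a-5p.

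**Figure D5:**
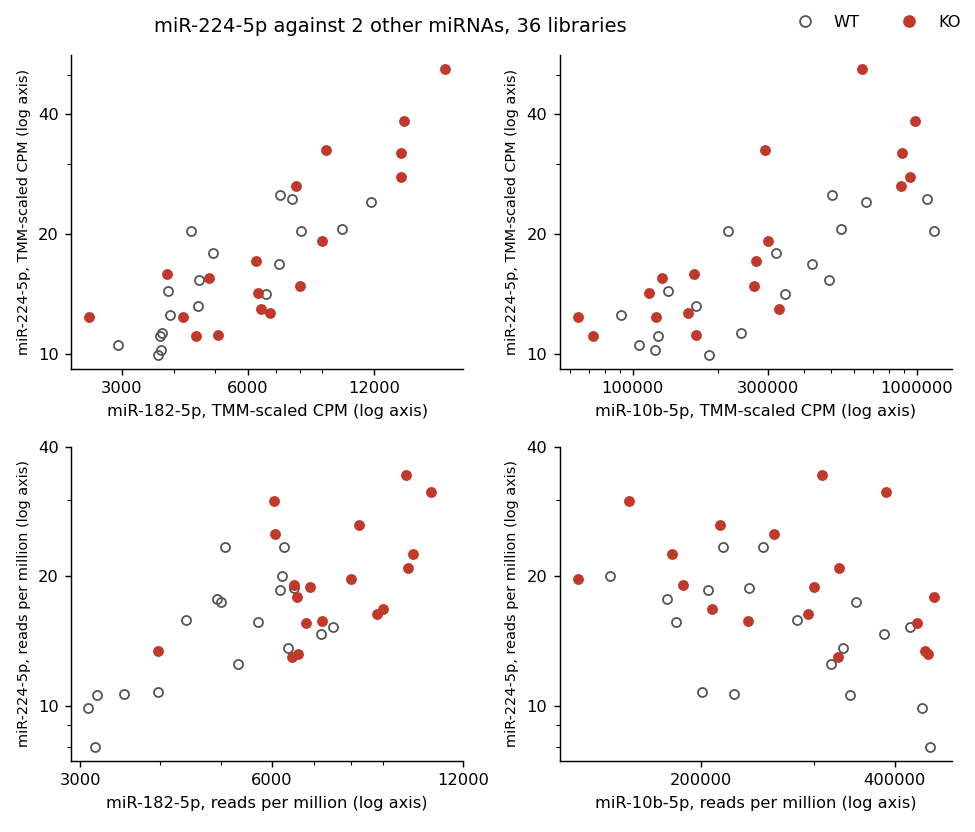
miR-224-5p against miR-182-5p (left) and miR-10b-5p (right) in 36 libraries, as TMM-scaled CPM (top) and RPM (bottom), all on log axes, with open grey points for WT and filled red points for KO. Spearman's rho with miR-182-5p was 0.834 in CPM and 0.535 in RPM, and with miR-10b-5p it was 0.794 and -0.439.

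A list of 12 kidney miRNAs linked to TGF-beta and fibrosis was examined beside miR-224-5p. At P7 1 of 12 was higher in KO in the Pkd1 model (0.425% of all miRNAs were called), and 5 were higher and 1 lower in the Pkd2 model (12.6% of all). For the mean of both models 2 were higher and 1 lower (8.0% of all), and the 2 higher were the arms of 1 hairpin, miR-21a-5p and miR-21a-3p. The median log2 fold changes of the list were 0.30, 1.10 and 0.61, beside 0.01, 0.02 and -0.03 for all miRNAs tested. The list was chosen with earlier results of these data known, so these medians describe it and are no test of it. miR-21a-5p, which is known to rise in injured and fibrotic kidney, rose at P7 by 1.45 on the log2 scale for Pkd1 (edgeR adjusted p = 0.00017) and 1.11 for Pkd2 (edgeR adjusted p = 0.0147). miR-29a-3p, a repressor of collagen genes, rose in the Pkd2 model (1.31, edgeR adjusted p = 0.00648). miR-192-5p, abundant in proximal tubule, fell for the mean of both models (-0.97, edgeR adjusted p = 0.0139). From P1 to P7 in KO kidneys 4 of the list rose and 0 fell in the Pkd1 model (17.1% of all miRNAs were called), and 6 rose and 1 fell in the Pkd2 model (24.4% of all). Both arms of miR-21a were among those that rose in each model.

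Among miRNAs whose hairpins all lie on chromosome X, 147 were in the table. At P7 0 of 63 tested differed between KO and WT in the Pkd1 model by edgeR's adjusted p, where miR-222-3p had the smallest p (0.75, adjusted p = 0.0705). Of the Pkd2 tests 1 of 67 was higher and 4 lower, led by miR-363-3p (-0.84, edgeR adjusted p = 0.0116), where 12.6% of all miRNAs were called. For the mean of both models 4 of 67 were higher, miR-224-5p among them, and 5 lower, where 8.0% of all were called. The other GABA-A receptor host in this region, Gabra3, carries Mir105 and Mir767 in intron 1. miR-105 was listed at 0 in all 36 libraries, and miR-767 had at most 2 reads in a library, which is under the floor.

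Some of the lists of marker miRNAs that were summed separated the genotypes at P7. Among single miRNAs tested, every KO library was above every WT library in 6.23% (Pkd1) and 13.5% (Pkd2). No such share is given here for KO below WT or for sums of miRNAs. The separations of sums that follow thus have no share to be set against. The summed CPM of 3 proximal tubule miRNAs was 11196 to 12709 in KO and 15712 to 27132 in WT libraries of the Pkd1 model, and 5583 to 11901 against 13918 to 24052 in the Pkd2 model. Of these 3 markers 0 were called in the Pkd1 model and 2 were called lower in the Pkd2 model. The same tests called 0.425% (Pkd1) and 12.6% (Pkd2) of all miRNAs. For Pkd2, 3 erythroid markers summed to 3447 to 5535 CPM in KO against 2211 to 2680 in WT libraries, and 3 striated muscle markers to 26.2 to 105 against 18.2 to 19.1, with 0 of 3 called by edgeR in either list. The sums for collecting duct, leukocyte, endothelium, smooth muscle and stroma, and neural cells overlapped between the genotypes in both models. The 5 miRNAs listed for collecting duct, where HoxB7 drives Cre, summed to 3315 to 4238 CPM in KO and 3394 to 5017 in Pkd1 WT libraries. In the Pkd2 model they summed to 5935 to 6326 against 6040 to 7461. Whether they measure the cells with the deletion was not tested. Of these 5 markers 0 were called in the Pkd1 model, where 3 had a log2 fold change above 0. In the Pkd2 model 2 were called higher in KO, where 12.6% of all miRNAs were called. Only these 2 of the 5 had a log2 fold change above 0 there, so the list did not move in 1 direction. The gonad list, miR-202-5p and miR-202-3p, stayed at or under 0.147 CPM in P7 KO libraries and reached 7.75 CPM in a Pkd1 WT library. The part of any of these cells in the miR-224-5p values was not tested.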

How the data were processed

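Per the paper's methods, the authors removed adaptors, kept reads longer than 17 bases and aligned them with miRDeep2 (version not given in the sources used here) to mm10 or to miRBase 21. The submitters' processing notes name CASAVA 1.8.2 and HTSeq. The deposited values were raw read counts, with no filter or normalization. All 36 columns matched a sample by name, and 0 columns belonged to no sample. Where a mature miRNA had several hairpin rows (83 miRNAs, none of them a member), the row with most reads stood for it. No 2 replicates agreed within sampling noise (chi-square per degree of freedom of at least 33.3 over 36 pairs). The labels give no batch.

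Counts were fitted with edgeR 4.0.16 in R 4.3.3 (TMM factors, 1 term per group, quasi-likelihood F-test) on miRNAs that reached 10 counts in 3 or more libraries, which left 706 in the 18 Pkd1 libraries, 746 in the 18 Pkd2 libraries and 775 in all 36. Printed CPM used the factors of the 36 libraries. p-values were adjusted by Benjamini-Hochberg over all miRNAs tested, with a threshold of 0.05, and the SE was the log2 fold change divided by the square root of F. The fit was also run on simulated counts with known changes, and the share of changes recovered is not reported here. Shares were compared with exact two-sided permutation tests (scipy 1.17.1). A floor of 3 reads and Wilson 95% intervals cover counting error only, because reads are not independent molecules. Hairpin positions came from GENCODE on GRCm38, the assembly of mm10.

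The miRNAs named were the 4 members, the 5 closest to miR-224-5p by Spearman's rho on TMM log2 CPM (prior count 2), any sharing a seed, and up to 3 of each list by smallest p. Members and lists were chosen with earlier results of these data known, and those led by rho in RPM were chosen after their values were seen. Alternatives were library totals alone, DESeq2 size factors, DESeq2 1.42.0, no filter, the compared groups only, miR-10a-5p and miR-10b-5p left out, a replicate block, rows summed, the miR-10 covariate (added after seeing the data) and each library left out. Messenger RNA, Gabre included, was not analysed here, so neither the deletion nor the host transcript was checked.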

Additional observations from a re-analysis of the deposited data

Results flagged for a closer look

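In the Pkd1 model the KO libraries had less miR-452-5p than every WT library at P1 and more than every WT library at P7 in CPM, so the genotype difference pointed in opposite directions at the 2 ages. KO minus WT was -0.356 in mean CPM at P1 and 0.269 at P7. At P1 the KO libraries held 1, 5 and 2 reads against 8, 4 and 8, and at P7 they held 1, 4 and 5 reads against 0, 0 and 2. All 3 WT libraries and KO replicate 1 at P7, and 2 of the 3 KO libraries at P1, were under the floor of 3 reads. Separation in either direction at P1 was seen in 18.1% of miRNAs tested, and KO above WT at P7 in 6.23%. The miRNA was below the filter in this model. Without the filter the difference between the ages did not pass (edgeR adjusted p = 0.441 over 1495 miRNAs). In RPM, which carries no TMM scaling, the P7 libraries overlapped.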

How the results depend on the processing

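The KO effect on miR-224-5p at P7 was above 0 in every fit made of either model and of their mean. For the mean of both models it ran from 0.88 to 1.17 over fits that left out a library, and the adjusted p exceeded 0.05 only without Pkd2 P7 KO replicate 3. In the Pkd1 model at P7 only the covariate fit passed (1.00, adjusted p = 0.0417), and it called 20 miRNAs against 3 in the main fit. In the Pkd2 model at P7 the adjusted p fell under 0.05 with no filter (1.13, adjusted p = 0.0297), with miR-10a-5p and miR-10b-5p left out (1.10, 0.0482), with rows summed (1.11, 0.0487), with DESeq2 (1.10, 0.0215) and with the covariate (0.90, 0.00548). Leaving out a library gave 0.90 to 1.46 there, and the call was gained without Pkd2 P7 KO replicate 1 (adjusted p = 0.0143, range 0.0143 to 0.230). With scaling by library totals alone miR-224-5p gave 0.21 for Pkd1 at P1, -0.092 for Pkd1 at P3, 0.083 for Pkd2 at P3, and from P1 to P7 -0.52 in Pkd1 WT, 0.31 in Pkd1 KO, -0.92 in Pkd2 WT and -0.29 in Pkd2 KO. miR-452-3p gave -0.40 in Pkd2 WT and -0.77 in Pkd2 KO from P1 to P7, and miR-452-5p gave -0.25 and -0.62. The medians of all miRNAs in these age comparisons were -0.68, -1.16, -0.78 and -0.97, and the cause of this common shift was not tested. For Pkd1 at P3, where the value was near 0, the sign also turned with DESeq2 size factors (-0.0013), no filter (-0.0040), miR-10 left out (-0.093), rows summed (-0.027), DESeq2 (-0.0096) and the covariate (-0.011). The covariate also turned the model difference at P7 (0.067).

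Leaving out 1 library also turned the sign of small effects, whose cause was not tested. For miR-224-5p the ranges were -0.37 to 0.23 (Pkd1 at P3), -0.42 to 0.36 (Pkd2 at P3), -0.032 to 0.32 (Pkd1 WT, P7 against P1), -0.35 to 0.011 (Pkd2 WT, P7 against P1) and -0.46 to 0.076 (model difference). In Pkd2 KO the change from P1 to P7 ran from 0.53 to 1.08 and was called without Pkd2 P7 KO replicate 1 (adjusted p = 0.0252, range 0.0252 to 0.382). For miR-452-3p they were -0.52 to 0.17 (Pkd2, effect at P7 minus P1), -1.35 to 1.36 (model difference), -0.18 to 0.33 (Pkd2 KO, P7 against P1) and -0.086 to 0.64 (Pkd2 WT). For miR-452-5p they were -0.85 to 0.85 (Pkd2, effect at P7 minus P1), -0.27 to 0.36 (Pkd2 at P3), -0.50 to 1.20 (Pkd2 at P7) and -0.57 to 1.13 (Pkd2 WT, P7 against P1). The KO minus WT difference in the 5p percentage of miR-224 ran from -0.226 to 0.600, from -0.279 to 0.692 and from -0.515 to 0.217 in Pkd2 at P1, P3 and P7. That of miR-452 ran from -1.71 to 28.3 in Pkd1 at P3, and from -15.4 to 0.704 and from -18.4 to 6.57 in Pkd2 at P3 and P7. miR-452-5p per 100 miR-224-5p reads ran from -0.207 to 0.439 and from -1.62 to 0.250 in Pkd2 at P3 and P7.

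No consistent pairing by replicate number was seen in the counts. Of 18 same-numbered KO and WT pairs, 7 had a correlation over 0.1 (range -0.495 to 0.508). Of 36 libraries, 11 were closest to their own number. Correlations of counts cannot show whether same-numbered animals were littermates or were processed together. With a replicate block miR-224-5p gave 0.96 in Pkd1 at P7 (adjusted p = 0.223), 1.16 in Pkd2 at P7 (0.0654) and 1.01 for their mean (0.0126), and no call of the members changed. Counts of calls over all miRNAs moved more. For Pkd1, Pkd2 and their mean at P7 they were 3, 94 and 62, and 3, 89 and 53 with the block, 0, 7 and 9 with library totals, 17, 157 and 72 with DESeq2, and 20, 168 and 122 with the covariate.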
